A study of Mus musculus with 6 samples.

Results

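The integrated stress response and amino acid supply genes are 35 mouse genes, taken by name from the 16519 genes of the count table. No threshold on their values was used, but the genes were chosen with earlier results of these data known. They fall into 3 sensor kinases, 7 transcription factors, 6 feedback and stress effectors, 9 amino acid and one-carbon enzymes, 6 amino acid transporters, and 4 genes for a receptor, an endoplasmic reticulum (ER) protein and secreted products. Of the 35, 34 had enough reads to be tested, and Cth, which encodes the cystathionine-cleaving enzyme that makes cysteine, did not: it had 2, 6 and 4 counts in KO and 2, 14 and 1 in WT. RNA was sequenced from bone marrow derived macrophages, which are primary macrophages grown from mouse marrow. The KO group (n = 3) came from Trmt61a f/f mice that carried LysmCre, and the WT group (n = 3) from Trmt61a f/f mice without it, so both groups carried the floxed allele. TRMT61A protein, together with TRMT6, places N1-methyladenosine (m1A) on tRNA, and the series title concerns that mark and translation in macrophages. The Cre sits in the Lyz2 gene and is active in myeloid cells, and since the KO group alone carried it, the loss of Trmt61a and the presence of Cre cannot be told apart. No stimulus is named in the labels, and they do not say whether the libraries came from separate mice or cultures, so p-values measure only how these libraries scatter, which may be technical.

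The integrated stress response starts when a sensor kinase phosphorylates the translation factor eIF2, which lowers translation of most mRNAs while that of Atf4 goes on. The ATF4 protein then switches on genes that import amino acids, make serine, asparagine and proline, and feed one-carbon units, and also genes that end the response. Because ATF4 is controlled mainly at translation, the RNA of its target genes is a common readout of the pathway in RNA-seq, while phosphorylated eIF2 and ATF4 protein are not measured by it.

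Libraries held between 37021855 and 41033179 counts, and no pair within a genotype agreed within sampling noise. Trmt61a had 0.530, 0.755 and 0.539 CPM (counts scaled to 1000000 per library) in KO, against 4.96, 3.89 and 5.06 CPM in WT. Its log2 fold change was -2.92 (SE 0.28, adjusted p = 0.00219, edgeR quasi-likelihood test with Benjamini-Hochberg adjustment over 12605 genes). All 8 macrophage markers were above 1 CPM, with a summed level of 11617 to 13329 CPM in KO and 11858 to 12862 CPM in WT. In these bulk libraries, fewer cells of a type and less RNA per cell cannot be told apart.

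No stress response or amino acid supply gene passed the test at an adjusted p of 0.05, either way. Over all tested genes 4 of 12605 passed (0.0317%), so a call among 34 genes would have been rare at this background. At an unadjusted p of 0.05, 1 of the 34 fell below it, Herpud1, against 3.10% of all tested genes. By limma voom that count was again 1 and by DESeq2 it was 0, and neither tool called a member after adjustment. The fitted changes were small: the log2 fold changes lay between -0.42 for Stc2 and 0.43 for Slc7a5. The median over the tested members was 0.12, beside a median near 0 over all tested genes (0.0000837). Of the 34, 24 had a log2 fold change above 0 (70.6%), beside 50.0% of all tested genes. Those 24 included all 8 tested enzymes, with a median of 0.24 (0.12 to 0.40 when 1 library was left out), all 6 transporters, with a median of 0.14, and 6 of 7 transcription factors, with a median of 0.12 (0.06 without KO 3 and 0.08 without WT 2). Among the marker lists, all 12 cell cycle genes (median 0.05) and all 5 stromal markers (median 0.42) also lay above 0. So did all 3 tested erythroid and megakaryocyte markers (median 0.30). The part of these lists in the enzyme and transporter values was not tested. The signs of these 14 enzymes and transporters held under every scaling, filter and tool tried, while Shmt2, Slc7a1 and Slc38a2 turned below 0 when certain single libraries were left out. All 3 kinases lay below 0, with a median of -0.02 that turned to 0.03 without KO 3, as did 3 of the 4 genes of the receptor, ER and secreted group, with a median of -0.25 (-0.11 without KO 1, -0.13 without WT 2 and -0.14 under the stricter filter of 1 CPM in 3 libraries). The 6 feedback genes split evenly, with a median of -0.01. KO and WT libraries did not overlap for 3 members with KO higher (Cebpg, Ddit3 and Nupr1; 4.05% of all tested genes) and for 1 with KO lower (Herpud1; 4.59% of all tested genes). With 3 libraries against 3, the smallest p of an exact two-sided permutation test is 0.1, which those 4 genes reached.

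**Figure D1:**
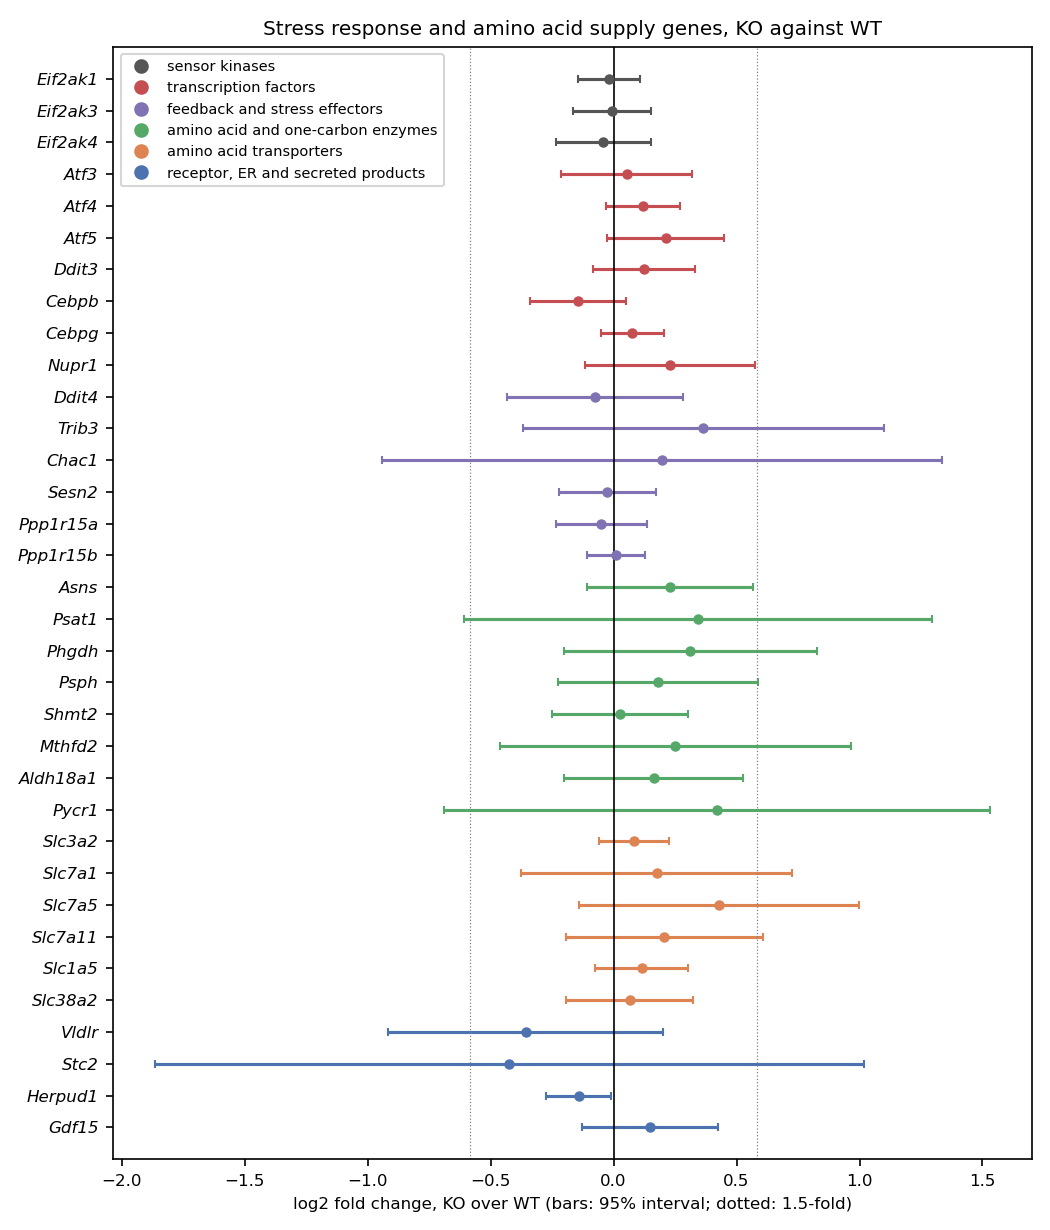
Log2 fold change of KO over WT (x axis) for the 34 tested genes (y axis, by role), as points with 95% intervals from the edgeR fit. The points lie between -0.42 for Stc2 and 0.43 for Slc7a5, and the interval of Herpud1 is the one that does not reach 0.

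The intervals limit what could have been missed in these libraries only, since they are built from library scatter that may be technical. For 22 of the 34 genes (64.7%, beside 72.4% of all tested genes) the 95% interval lay within a 1.5-fold change in either direction, and for 29 (85.3%, beside 84.3%) within a 2-fold change. These 22 included all 3 kinases and all 7 transcription factors, but 3 of 8 enzymes and 3 of 6 transporters. The 5 genes whose interval reached past 2-fold were Trib3, Chac1, Psat1, Pycr1 and Stc2.

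Read counts divided by transcript length put the genes on one scale of level. On that scale (CPM per kilobase of the longest transcript) the surface heavy chain Slc3a2 was first, with 100.3 ± 6.75 in KO and 94.7 ± 4.39 in WT (SD, n = 3 each, as throughout). The transcription factor genes Cebpb, Atf3 and Atf4 followed. Cebpb stood at 85.3 ± 5.50 in KO and 94.2 ± 11.5 in WT, Atf3 at 90.8 ± 12.5 in KO and 87.6 ± 9.81 in WT, and Atf4 at 77.6 ± 5.81 in KO and 71.5 ± 4.09 in WT. The levels of Cebpb and Atf3 lay within their spread of each other. Herpud1 came next, with 45.6 ± 1.96 in KO and 50.3 ± 1.94 in WT, followed by Atf5, Eif2ak1, Ppp1r15b and Ddit3, between 17.7 and 20.0 as a mean of 6 libraries. At the low end stood Slc7a11, Vldlr, Chac1, Pycr1, Stc2 and Cth, all under 1 CPM per kilobase. Of the 35 genes, 31 averaged at least 1 CPM and 23 at least 10 CPM. The order depends on the transcript taken. With the median transcript length, Slc3a2 stayed first, but Atf4 moved from place 4 to 2 and Cebpb from 2 to 4. Aldh18a1 moved from place 24 to 9 and Slc7a1 from 25 to 12.

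**Figure D2:**
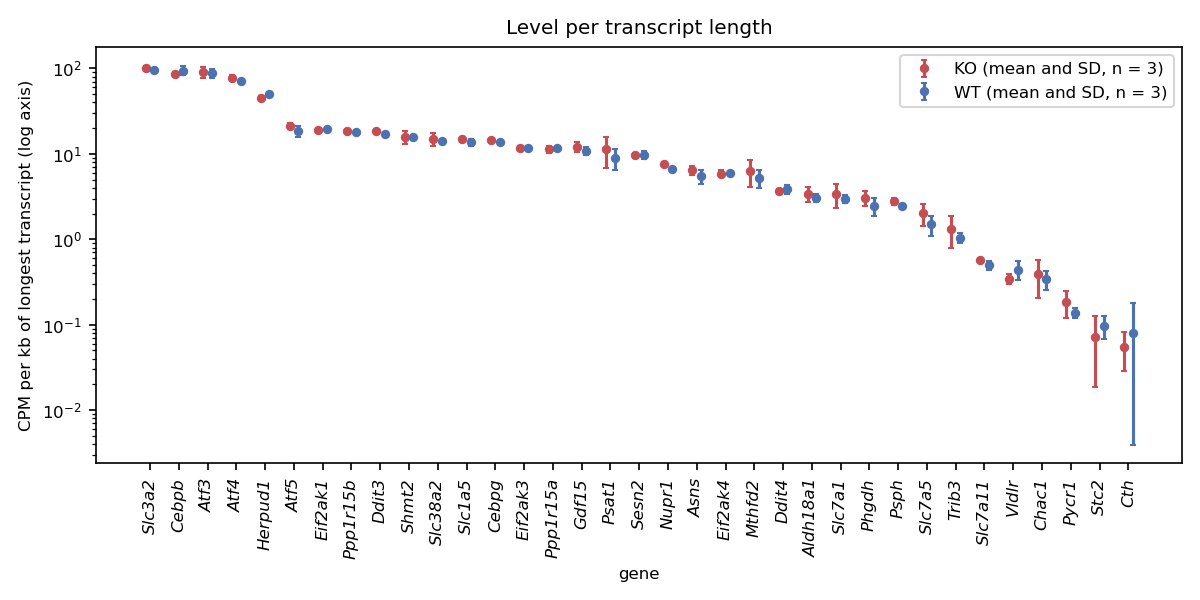
Level of each of the 35 genes in CPM per kilobase of longest transcript (log axis), as the mean of 3 KO libraries and the mean of 3 WT libraries with the SD as bars, ordered by level. Slc3a2 stands at the top with 100.3 in KO and 94.7 in WT, and Cth at the bottom, where the SD of the WT mean (0.0997) is larger than the mean itself (0.0790), so that its lower bar is cut short.

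The 3 sensor kinases were present in every library at steady levels. Eif2ak1 encodes HRI, which responds to heme shortage and to stress relayed from mitochondria, and had 84.8, 83.7 and 79.0 CPM in KO, against 83.4, 84.8 and 82.6 CPM in WT. Eif2ak3 encodes PERK, the kinase of the ER membrane that senses unfolded protein, and had 56.3, 51.8 and 50.1 CPM in KO, against 53.3, 55.8 and 49.8 CPM in WT. Eif2ak4 encodes GCN2, which binds uncharged tRNA, and had 31.9, 33.3 and 27.7 CPM in KO, against 33.8, 30.4 and 31.3 CPM in WT. KO and WT overlapped for all 3, and the log2 fold changes were -0.02 (SE 0.06) for Eif2ak1, -0.00598 (SE 0.07) for Eif2ak3 and -0.04 (SE 0.09) for Eif2ak4. Their 95% intervals reached no further than -0.24 and 0.15. Eif2ak1 overlaps Ankrd61 and Aimp2 in the genome, and the sources used here do not say whether counting used strand, so reads of the overlapping stretches cannot be assigned to one gene.

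Among the transcription factors, Atf4 (chr15:80255184-80257545, mm10) had 125, 132 and 145 CPM in KO, against 122, 117 and 131 CPM in WT. KO 1 lay inside the WT range, and KO 2 and KO 3 above it. Atf4 averaged 134 ± 10.01 CPM in KO and 123 ± 7.06 CPM in WT, with a log2 fold change of 0.12 (SE 0.07, 95% interval -0.03 to 0.27). Ddit3 encodes CHOP, a factor of the later, death-linked phase of the response. It had 16.3, 16.0 and 16.9 CPM in KO, against 15.2, 14.5 and 15.5 CPM in WT, and every KO library was above every WT library. The step was small, with a log2 fold change of 0.12 (SE 0.09), and Ddit3 overlaps Mars1 and Mbd6 in the genome. Mars1, the methionyl-tRNA synthetase gene, also had KO libraries above WT libraries (29.0 ± 2.63 CPM in KO and 23.9 ± 1.61 CPM in WT). Whether the overlap affects the Ddit3 values, by reads lost or gained, was not tested.

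Atf5, a relative of Atf4 that is translated under the same control and acts on mitochondrial protein quality genes, had 39.6, 41.8 and 35.6 CPM in KO, against 36.3, 36.6 and 28.2 CPM in WT. The groups overlapped because KO 3 was lower than WT 1 and WT 2, and WT 3 was the lowest library. Its log2 fold change of 0.21 (SE 0.11) had the smallest p of the factors (unadjusted p = 0.0750, adjusted p = 0.99995, edgeR), and it overlaps Nup62 and Il4i1b. Cebpb, a bZIP factor of macrophage differentiation and inflammation that pairs with ATF4, was the one factor with a negative value. It had 128, 137 and 120.0 CPM in KO, against 155, 148 and 122 CPM in WT, with a log2 fold change of -0.14 (SE 0.09). WT 3 lay among the KO libraries. Atf3, an early stress factor that also restrains inflammatory genes in macrophages, had 155, 181 and 205 CPM in KO, against 175, 154 and 193 CPM in WT, and its log2 fold change of 0.05 (SE 0.11) was smaller than its SD within a genotype, 0.18 on the log2 scale.

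Cebpg and Nupr1 are described because their libraries did not overlap, a choice made after their values were seen. Cebpg encodes a dimer partner of ATF4 and had 66.1, 68.2 and 69.5 CPM in KO, against 64.3, 63.4 and 65.7 CPM in WT. KO 1 lay just above WT 3, and the log2 fold change was 0.08 (SE 0.06). Nupr1 encodes a small stress-induced chromatin protein and had 6.60, 6.52 and 6.02 CPM in KO, against 5.42, 5.35 and 5.55 CPM in WT. Its log2 fold change was 0.23 (SE 0.16, 95% interval -0.12 to 0.58), the largest of the 7 factors. The Cebpg locus overlaps the predicted gene Gm45095.

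**Figure D3:**
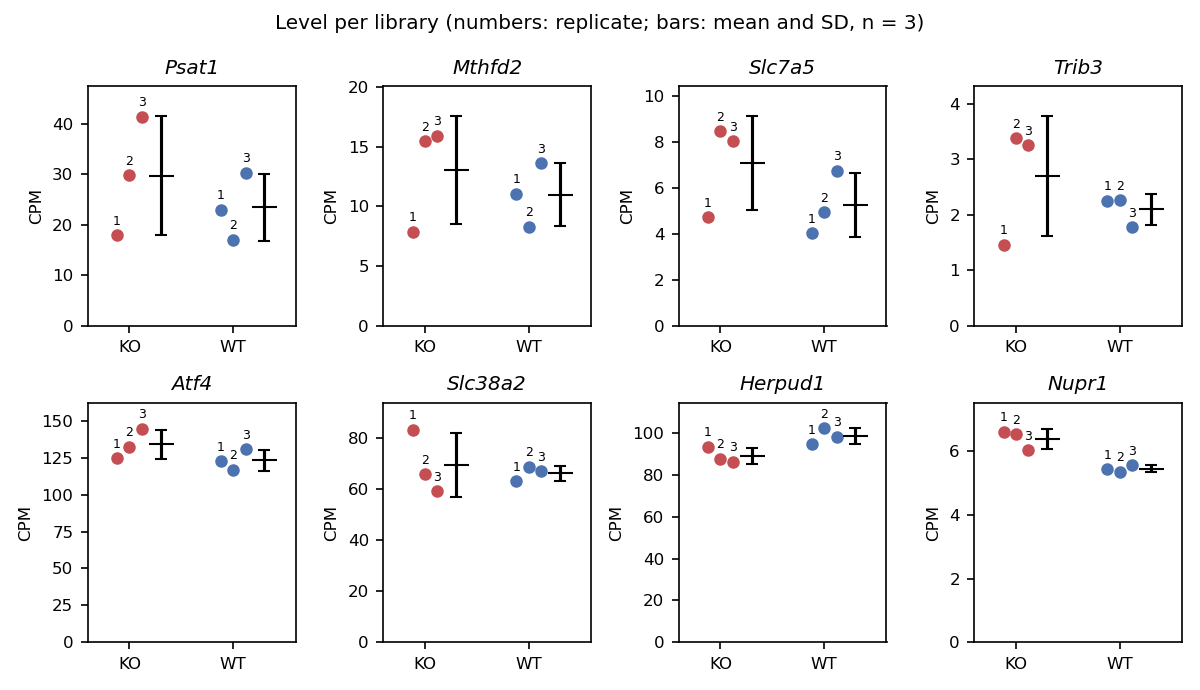
CPM in each library (points) with the mean and SD of each genotype (bars, n = 3) for 8 of the members, KO at the left and WT at the right of each panel, each panel with its own axis. Nupr1 in KO (6.02 to 6.60) stands just above WT (5.35 to 5.55), Herpud1 in KO (86.2 to 93.4) just below WT (94.5 to 102), and Psat1 spreads over 17.9 to 41.4 in KO and 17.0 to 30.3 in WT.

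The feedback and stress effectors showed no common direction. Ppp1r15a (GADD34) and Ppp1r15b (CReP) encode the subunits that bring the phosphatase to eIF2 and so end the response. Ppp1r15b was among the steadiest genes of all 34, with 100.1, 105 and 102 CPM in KO, against 100.3, 101 and 103 CPM in WT. Ppp1r15a had 31.9, 34.9 and 28.7 CPM in KO, against 33.9, 32.9 and 32.0 CPM in WT, with a log2 fold change of -0.05 (SE 0.08). The WT values of Ppp1r15a lay inside the KO range. Trib3, a pseudokinase that is an ATF4 and CHOP target and dampens both, had 1.46, 3.37 and 3.26 CPM in KO, against 2.25, 2.26 and 1.78 CPM in WT. KO 2 and KO 3 were above all WT libraries and KO 1 below them. The log2 fold change of Trib3 was 0.37 (SE 0.33) and its 95% interval ran from -0.37 to 1.10.

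Chac1 encodes an enzyme that breaks down glutathione and is a sensitive ATF4 target. It was rare, with 12, 27 and 37 counts in KO and 26, 17 and 22 in WT, which is 0.318, 0.680 and 0.906 CPM in KO against 0.705, 0.427 and 0.536 CPM in WT. The KO libraries hold both its lowest and its highest value. Ddit4 (REDD1) and Sesn2 (sestrin), both inhibitors of the growth kinase mTORC1, had log2 fold changes of -0.07 (SE 0.16) and -0.02 (SE 0.09). Ddit4 had 5.99, 6.87 and 6.39 CPM in KO, against 7.02, 7.41 and 5.84 CPM in WT, with all KO values inside the WT range. Sesn2 averaged 33.3 ± 1.89 CPM in KO and 33.9 ± 3.52 CPM in WT.

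Promoter sequence shows which of these genes carry, near their start, the C/EBP-ATF response element (CARE), the DNA element that ATF4 binds with a C/EBP partner. The search covered 300 bases around the start (250 before it and 50 after) in RefSeq windows of GRCm38.p6, on both strands, for the core TGATGNAA, and 31 of the 35 genes had such a window. The core was found in 9 of the 31 (29.0%), beside 3.06% of the genes of the count table that had a window. With N fixed to C it was found in 7 (22.6%), beside 0.741%. The members were listed by name as genes of this response, with known ATF4 targets among them, so these shares are no independent result. The cAMP response element TGACGTCA was found in 1 of the 31, Ppp1r15a (3.23%, beside 3.15%), and the ER stress response element in none (beside 0.170%). The ER stress response element was sought in a fixed form only, and its variant forms were not searched for. Its count of none therefore does not show that Herpud1 or another member lacks such an element near its start. No member's window held both the core and the cAMP response element, so no matches of these overlapped. A match is a description, not a binding site. The stretches with the core are shown because they mark the members with this element close to the start. They are on the strand of the gene, 5′ to 3′, with the core in capitals, either as TGATGNAA or as its reverse complement TTNCATCA.
Atf3, chr1:191183425-191183454, minus strand: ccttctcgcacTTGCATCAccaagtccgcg
Chac1, chr2:119351038-119351067, plus strand: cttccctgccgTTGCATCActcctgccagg
Trib3, chr2:152344028-152344057, minus strand: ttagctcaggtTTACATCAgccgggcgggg
Slc7a11, chr3:50443642-50443690, minus strand: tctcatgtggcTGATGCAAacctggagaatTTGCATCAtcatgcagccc
Asns, chr6:7693214-7693243, minus strand: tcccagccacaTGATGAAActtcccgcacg
Nupr1, chr7:126625562-126625591, minus strand: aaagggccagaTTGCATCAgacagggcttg
Herpud1, chr8:94386306-94386335, plus strand: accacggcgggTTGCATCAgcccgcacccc
Pycr1, chr11:120643833-120643862, minus strand: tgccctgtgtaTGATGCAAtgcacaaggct
Vldlr, chr19:27216809-27216838, plus strand: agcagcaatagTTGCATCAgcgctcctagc

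The cystine transporter gene Slc7a11 was the one with a pair of cores, 66 and 47 bases before its start and in opposite orientation. The Asns core lay 23 bases before the start and the Trib3 core 14 bases after it, though the bases that follow the listed Trib3 start were not found in a transcript of that gene, while those of Atf3, Nupr1, Herpud1 and Pycr1 lay 103 to 112 bases before it. The 9 genes with a core did not move as one. Of them 7 had a log2 fold change above 0 and 2, Herpud1 and Vldlr, below it, with a median of 0.21. Of the 22 with a window and no core, 14 lay above 0 and 8 below, with a median of 0.08. The median SD within a genotype was 0.22 on the log2 scale for the 9 (0.05 to 0.55) and 0.14 for the 22 (0.03 to 0.72). The ranges overlapped widely, and the groups were not matched for level.

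The amino acid and one-carbon enzymes all had log2 fold changes above 0, from 0.03 for Shmt2 to 0.42 for Pycr1, and in all 8 the libraries of the 2 genotypes overlapped. Asns, which makes asparagine from aspartate and glutamine, had 11.1, 13.5 and 14.3 CPM in KO, against 13.4, 9.74 and 10.1 CPM in WT, with a log2 fold change of 0.23 (SE 0.15). KO 2 and KO 3 were above every WT library, and KO 1 was below WT 1. Of the serine pathway, Phgdh, its first enzyme, had 4.45, 6.32 and 6.51 CPM in KO, against 4.99, 3.37 and 5.58 CPM in WT (log2 fold change 0.31, SE 0.23). Psat1 (chr19:15905123-15925059, mm10), the next step, had 17.9, 29.8 and 41.4 CPM in KO, against 23.0, 17.0 and 30.3 CPM in WT. Its highest library was 2.43 times its lowest, and both genotypes held low and high libraries. The log2 fold change of Psat1 was 0.34 (SE 0.37), less than its SD within a genotype of 0.52. Psph, the last step, varied less, with 4.84 ± 0.463 CPM in KO and 4.27 ± 0.201 CPM in WT (log2 fold change 0.18, SE 0.18), and it overlaps Cct6a.

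The mitochondrial one-carbon pair gave different values. Shmt2, which moves a carbon unit from serine to folate, had 29.0, 39.2 and 40.7 CPM in KO, against 37.9, 32.8 and 36.3 CPM in WT, and a log2 fold change of 0.03 (SE 0.12). Mthfd2, which oxidises that unit further, had 7.87, 15.4 and 15.9 CPM in KO, against 11.1, 8.29 and 13.6 CPM in WT, and a log2 fold change of 0.25 (SE 0.30). In both genes KO 1 was the lowest of the 6 libraries and KO 2 and KO 3 were the highest. Shmt2 overlaps Ndufa4l2. Of the proline pathway, Aldh18a1, which starts it, had 9.15, 13.1 and 13.9 CPM in KO, against 11.6, 9.39 and 11.3 CPM in WT (log2 fold change 0.16, SE 0.17). Pycr1, which ends it in mitochondria, was rare, with 0.536 ± 0.183 CPM in KO and 0.401 ± 0.0522 CPM in WT.

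All 6 transporters also had log2 fold changes above 0, with overlap between genotypes in each. Slc7a5 (LAT1, chr8:121881146-121907686, mm10) imports leucine and other large neutral amino acids. It had 4.72, 8.46 and 8.03 CPM in KO, against 4.04, 4.95 and 6.74 CPM in WT, and its log2 fold change of 0.43 was the largest of the 34 (SE 0.26, 95% interval -0.14 to 0.999). KO 2 and KO 3 were above all WT libraries, and KO 1 lay between WT 1 and WT 2. Its partner, the heavy chain Slc3a2 (CD98), had 260.4, 290.1 and 296 CPM in KO, against 280.0, 256 and 263 CPM in WT. Its log2 fold change was 0.08 (SE 0.06), with the 95% interval reaching 0.23. Slc7a11 (xCT), another of the light chains that pair with Slc3a2, exchanges glutamate for cystine and had 5.30, 5.31 and 5.14 CPM in KO, against 5.20, 4.12 and 4.33 CPM in WT. WT 1 lay inside the KO range, and the log2 fold change was 0.21 (SE 0.18).

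Slc1a5 (ASCT2), a glutamine carrier, had 38.0, 40.8 and 43.4 CPM in KO, against 34.3, 37.4 and 41.2 CPM in WT, with a log2 fold change of 0.11 (SE 0.09). Slc7a1 (CAT1), which imports arginine and lysine, had 16.2, 25.5 and 31.1 CPM in KO, against 21.3, 19.3 and 24.0 CPM in WT, with a log2 fold change of 0.17 (SE 0.23). KO 1 was the lowest of the 6 libraries for Slc7a1. Slc38a2 (SNAT2), which imports small neutral amino acids and is known to be induced by their shortage, ran the other way among the KO libraries. It had 83.1, 65.7 and 59.0 CPM in KO, against 62.9, 68.7 and 66.9 CPM in WT, so that KO 1 was the highest and KO 3 the lowest of all 6.

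Herpud1 (chr8:94386429-94395371, mm10) encodes an ER membrane protein that helps to discard misfolded proteins and is a target of both PERK and ATF6. It had 93.4, 87.5 and 86.2 CPM in KO, against 94.5, 102 and 98.2 CPM in WT, and every KO library was below every WT library. Its mean of 89.0 ± 3.84 CPM in KO stood against 98.3 ± 3.79 CPM in WT. The log2 fold change of -0.14 (SE 0.06, 95% interval -0.27 to -0.01) had an unadjusted p of 0.0368 and an adjusted p of 0.99995 (edgeR), with an exact permutation p of 0.1. Vldlr, a lipoprotein receptor that PERK signalling is known to raise, had 2.44, 3.17 and 2.62 CPM in KO, against 3.28, 4.50 and 2.78 CPM in WT, with a log2 fold change of -0.36 (SE 0.25). KO 2 overlapped WT 3. Gdf15, a secreted stress hormone, had 18.5, 21.2 and 16.3 CPM in KO, against 17.3, 18.5 and 14.6 CPM in WT (log2 fold change 0.15, SE 0.13). Stc2, a secreted glycoprotein, was listed with 4, 9 and 21 counts in KO and 16, 10 and 19 in WT. Its log2 fold change of -0.42 had an SE of 0.65.

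For 21 of the 34 genes, and for 9 of the 14 tested enzymes and transporters, the SD within a genotype was larger than the size of the log2 fold change. That SD had a median of 0.159 on the log2 scale over the 34 genes and of 0.130 over all tested genes, and 19 of the 34 lay above the median of all genes. It was largest for Stc2 (0.72), Chac1 (0.55), Psat1 (0.52), Trib3 (0.49), Mthfd2 (0.48) and Slc7a5 (0.42), and smallest for Ppp1r15b (0.03), Cebpg (0.03), Eif2ak1 (0.04) and Ddit3 (0.04). The highest library was more than 2 times the lowest for 7 genes (17.3% of all tested genes were so). Stc2 and Chac1 are also among the rarest, where counting error is large.

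**Figure D4:**
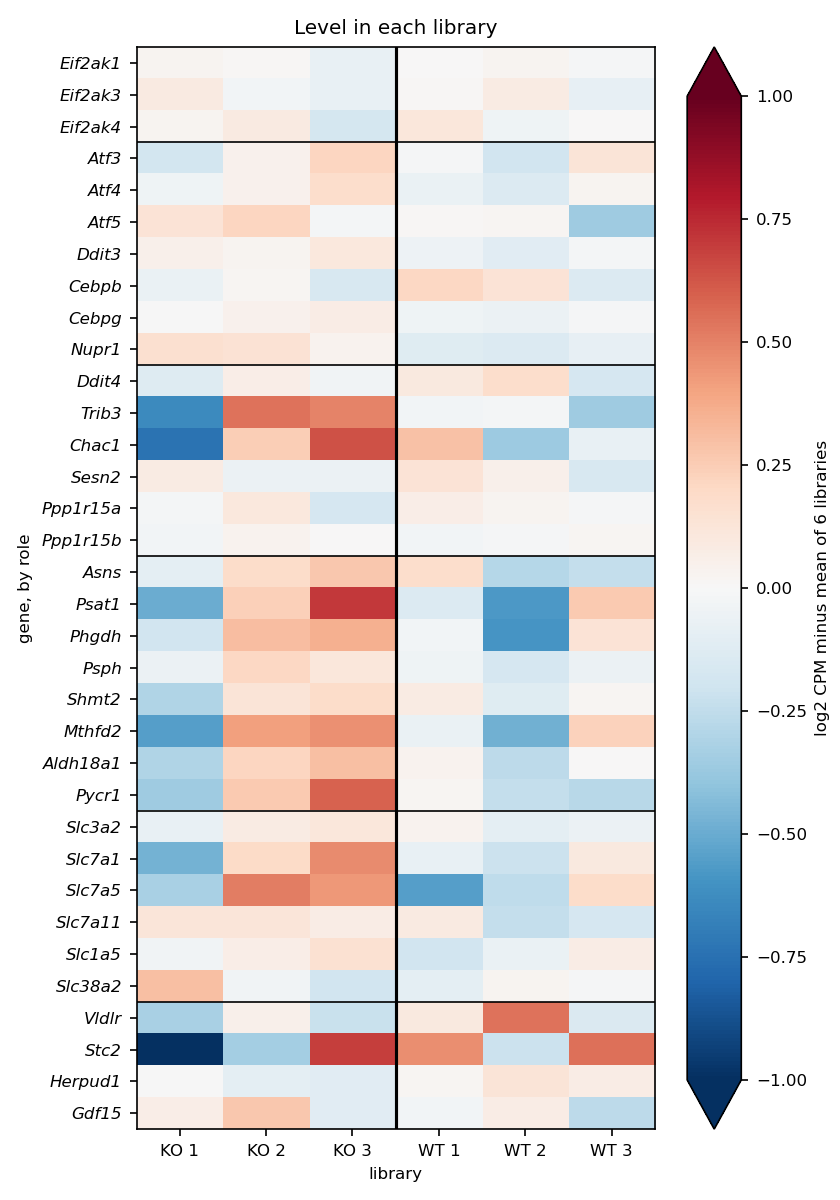
Log2 CPM of each of the 34 tested genes in each library minus its mean over the 6 libraries (colour), with genes in rows by role and libraries in columns, KO at the left. The enzyme rows are mostly low in KO 1 and WT 2 and high in KO 2 and KO 3.

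The libraries KO 1 and WT 2 held most of the low values. KO 1 was the lowest library for 10 of the 34 genes and WT 2 for 11, where over all tested genes KO 1 was lowest for 18.7% and WT 2 for 18.3%. KO 3 was the highest library for 16, where over all tested genes it was highest for 18.5%. The mean deviation of the 8 enzymes from their 6-library mean was -0.29, 0.25 and 0.37 in KO, against 0.01, -0.34 and 0.01 in WT. That of the 12 cell cycle genes in the same libraries was -0.47, 0.14 and 0.44 in KO, against -0.08, -0.41 and 0.38 in WT. Both sets had the same order of libraries within each genotype, lowest in KO 1 and in WT 2, but WT 3 was high for cell cycle genes and near the mean for the enzymes. Markers of other cells also differed between libraries. The 8 neutrophil and precursor markers, all present, had a mean deviation of -0.56, 0.25 and 0.22 in KO, against -0.18, -0.34 and 0.61 in WT, and summed to 1328 to 2123 CPM in KO and 1356 to 2448 CPM in WT. The 5 stromal markers, all present, summed to 91.7 to 224 CPM in KO and 90.9 to 143 CPM in WT. The mean deviation of the 8 macrophage markers stayed between -0.05 and 0.06, but single markers moved more and not in one direction. Mrc1 had 1804, 1484 and 1395 CPM in KO, against 1438, 1744 and 1333 CPM in WT, highest in KO 1 and WT 2 within each genotype. Cd68 had 1805, 2019 and 1999 CPM in KO, against 1979, 1755 and 1966 CPM in WT, lowest in those libraries. Mast cell, basophil and eosinophil markers summed to 21.3 to 46.4 CPM in KO and 21.5 to 49.9 CPM in WT. Most of that sum was Prg2, with 18.1, 35.1 and 38.6 CPM in KO, against 21.6, 16.8 and 40.2 CPM in WT. Mcpt8, Cpa3 and Ms4a2 were each under 1 CPM in every library, with Mcpt8 at 0 in KO 1. The 3 dendritic cell markers summed to 2.29 to 2.59 CPM in KO and 2.48 to 3.04 CPM in WT. Of the megakaryocyte markers, Pf4 had 135, 133 and 139 CPM in KO, against 125, 125 and 100.2 CPM in WT, without overlap, and Itga2b had 12.3, 23.5 and 17.4 CPM in KO, against 12.1, 11.7 and 19.6 CPM in WT, with overlap. Lymphocyte markers were near 0, with 0.769 to 1.76 CPM summed in KO and 0.427 to 2.61 CPM in WT. The part of these other cells in the enzyme values was not tested.

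**Figure D5:**
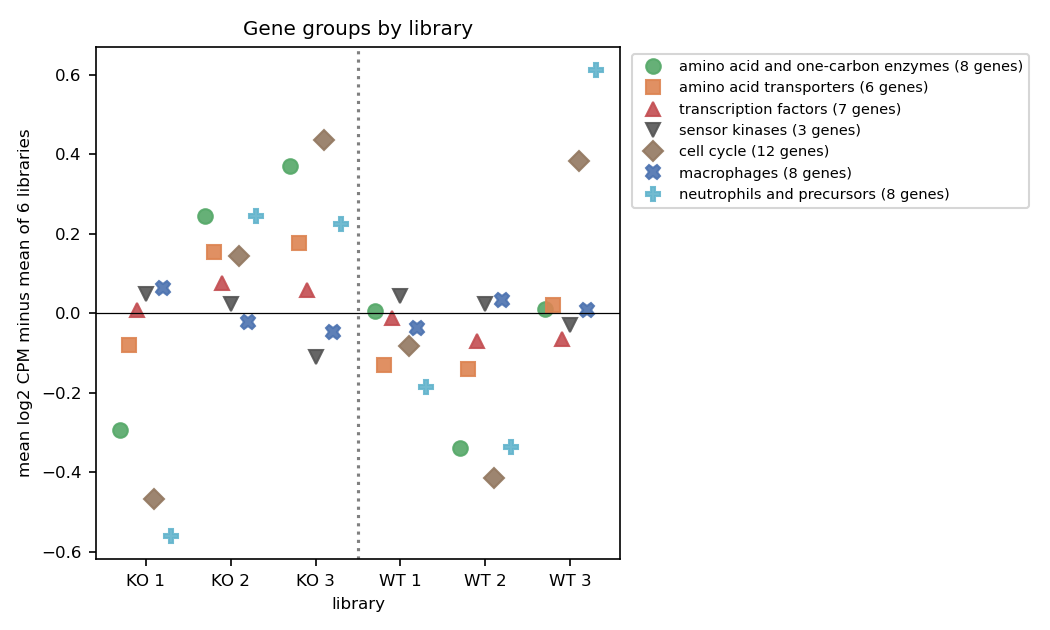
Mean log2 CPM minus the mean of the 6 libraries (y axis) for gene groups and marker lists in each library (x axis), KO at the left. The enzymes follow the cell cycle list in KO (-0.29, 0.25 and 0.37 beside -0.47, 0.14 and 0.44) and part from it in WT 3 (0.01 beside 0.38).

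With the cell cycle mean, centred within genotype, as a covariate (an addition made after the data were seen), 0 of the 34 genes passed at an adjusted p of 0.05 by edgeR, and the smallest adjusted p was 0.180, for Psat1, with a log2 fold change of 0.30. At an unadjusted p of 0.05, 5 lay below it, 4 higher in KO (Atf4, Atf5, Psat1 and Slc7a5) and 1 lower (Herpud1), which is 14.7% beside 7.44% of all tested genes.

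The counts of genes without overlap and of unadjusted p under 0.05 moved most when KO 1 was left out. In the remaining 5 libraries, KO and WT did not overlap for 16 of the 34 genes (47.1%, beside 21.6% of all tested genes), 15 of them higher in KO. The 15 were 7 enzymes (Asns, Phgdh, Psph, Shmt2, Mthfd2, Aldh18a1 and Pycr1), the transporters Slc3a2, Slc7a1 and Slc7a5, the factors Atf4, Ddit3, Cebpg and Nupr1, and Trib3. The lower one was Herpud1. At an unadjusted p of 0.05, 8 genes lay below it (23.5%, beside 5.34% of all tested genes), and 0 passed after adjustment, with a smallest adjusted p of 0.850 (edgeR). The median of the enzymes was 0.24 with all libraries, 0.40 without KO 1, 0.12 without KO 3, 0.13 without WT 2 and 0.16 without KO 2. The median over the 34 genes moved most without KO 3, to 0.05. Slc38a2 turned to -0.09 without KO 1. With WT 2, the low WT library, left out as well, the number without overlap was again 16, which is 47.1% beside 32.3% of all tested genes, and 4 genes lay below an unadjusted p of 0.05. Each library was left out in turn, and KO 1 is described because these genes stood low in it, so the values describe how the spread is shared among libraries and are no second test.

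Neighbouring parts of the pathway were covered by 8 further lists with 89 tested genes. Of these, 0 passed at an adjusted p of 0.05 by edgeR or limma voom and 1, Slc1a3, by DESeq2. By each tool 7 of the 89 had an unadjusted p under 0.05. The share of all tested genes was 3.10% by edgeR, 3.23% by limma voom and 2.82% by DESeq2. By edgeR the count was 11 without KO 1 (beside 5.34% of all tested genes). It was 3 without KO 3 (beside 2.39%) and 3 without WT 2 (beside 2.91%). Of the 16 tested genes of the ATF6 and XBP1 arms of the unfolded protein response, which raise ER folding capacity beside PERK, 4 lay below an unadjusted p of 0.05, all with higher values in KO, which is 25.0% beside 3.10% of all tested genes. The ER chaperone Hspa5 (BiP) averaged 641 ± 3.98 CPM in KO and 572 ± 15.6 CPM in WT, with a log2 fold change of 0.17. Hyou1, Pdia6 and Sdf2l1, also of ER folding, had log2 fold changes of 0.16, 0.16 and 0.21. For Hspa5, Hyou1 and Pdia6 every KO library was above every WT library, as for 4.05% of all tested genes. For 2 others of the list, Creld2 (20.0 CPM in KO and 20.6 CPM in WT on average) and Syvn1 (82.2 CPM in KO and 85.1 CPM in WT), every KO library was below every WT library. The same held for Herpud1 and for 4.59% of all tested genes. The median over the 16 was 0.03. Of 16 other ATF4 and CHOP targets, 12 lay above 0 and 1 had an unadjusted p under 0.05, Mars1 (log2 fold change 0.28). Mthfd1l had the next smallest p there, with 0.37. The 8 subunits of eIF2 and its exchange factor eIF2B split 4 above and 4 below 0, with Eif2s2 at -0.11 and Eif2b5 at 0.11.

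Of 12 genes of amino acid sensing by GCN2 and mTORC1, 8 lay above 0, with Sesn3 at 0.27 and Gcn1, the GCN2 activator, at 0.06. Of 8 genes of the mitochondrial stress relay, 5 lay above 0, with Hspd1 at 0.14 and Lonp1 at 0.10. Of 6 other serine and one-carbon enzymes, 4 lay above 0, with Mthfd1 at 0.22 and Amt at -0.27, and of 9 genes of arginine and proline metabolism 5 did, with Prodh at 0.25. Of the 14 other amino acid transporters, 3 lay above 0 (21.4%, beside 50.0% of all tested genes) and 11 below, with a median of -0.05. Their median deviation in each library overlapped between genotypes, with 0.02, -0.02 and -0.06 in KO, against 0.05, 0.06 and -0.01 in WT. Of the 14, 2 had an unadjusted p under 0.05. These were Slc1a3, a glutamate and aspartate carrier, with 0.401 ± 0.161 CPM in KO and 2.40 ± 0.877 CPM in WT (log2 fold change -2.58, adjusted p = 0.176, edgeR), and Slc7a2 (CAT2), the arginine carrier of activated macrophages, with 7.73 ± 1.46 CPM in KO and 10.98 ± 1.61 CPM in WT (log2 fold change -0.51).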

How the data were processed

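Per the labels' protocols, TRIzol was used to extract total RNA and the VAHTS Universal V6 kit to prepare libraries. The authors deposited raw read counts per gene for 6 libraries, made with fastp, HISAT2 and HTSeq on mm10, per the submitters' processing notes. The sources used here give no versions, annotation, strand setting or gene filter. Unstranded counting would leave reads of overlapping genes unassigned, and 7 of the 35 members overlap another counted gene: those named in the report and Ppp1r15a, which overlaps Tulp2. Genotype and replicate number came from the titles.

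Counts were analysed as deposited in edgeR 4.0.16 (R 4.3.3): filterByExpr by genotype (minimum count 10), TMM factors and robust quasi-likelihood F tests of KO minus WT in legacy mode, adjusted by Benjamini-Hochberg over 12605 genes (threshold 0.05). Standard errors were taken as |log2 fold change|/√F, and gave the 95% intervals. CPM values use TMM-scaled library sizes. A count of 3 corresponds to 0.0730 to 0.0813 CPM, and such floors cover counting error only. The fit was tested on simulated data. The common biological coefficient of variation was 0.122. Replicate pairs gave 11.4 to 34.4 chi-square per degree of freedom, so each library counted once. Alternatives used limma 3.58.1 and DESeq2 1.42.0.

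Of 16519 genes, 16438 were matched by Entrez Gene ID to RefSeq GRCm38.p6, the assembly of mm10. Transcript lengths come from GENCODE M21 protein-coding transcripts. Of the 37 promoter windows of members, 35 continued into a transcript of the gene on the same strand.

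The members, the further lists and the tests were chosen with earlier results of these data known, and no p is given for a list. Values in every library are given for the kinases, Atf4, Ddit3, the 3 members of each role with the smallest p and the one with the largest SD within a genotype; other members given in full, and other genes given with values beyond the 2 of smallest p in each further list, were chosen after their values were seen. Fgf21 was not analysed here, and some genes that the rule names are not reported here.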

Additional observations from a re-analysis of the deposited data

How the results depend on the processing

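No member passed at an adjusted p of 0.05 under any of 16 alternatives, and Trmt61a kept its call under all 16. The genes called over the whole table numbered 4 in the reported fit, 8 with the replicate block, 16 with DESeq2, 29 with the cell cycle covariate and 3 to 5 when 1 library was left out. Members below an unadjusted p of 0.05 numbered 1 in the reported fit, 2 with the replicate block (Atf5 and Slc7a5; 5.88% beside 3.24% of all tested genes), 0 with DESeq2 (beside 2.82%), 5 with the covariate, 4 without KO 1 and WT 2 (11.8% beside 4.28%), and 0 to 8 when 1 library was left out (8 without KO 1, 0 without KO 2, beside 2.63%, and 2 or 5.88% without WT 1, beside 2.36%, or WT 3, beside 4.13%). Members whose libraries did not overlap numbered 4 (11.8% beside 8.65% of all tested genes) with all libraries and 4 to 16 when 1 library was left out, where the share of all genes is larger too: 16 without KO 1 (47.1% beside 21.6%), 7 without KO 3 (20.6% beside 16.3%), 9 without WT 3 (26.5% beside 19.8%) and 4 without WT 2 (11.8% beside 17.6%). Without KO 1 and WT 2 they numbered 16 (47.1% beside 32.3%). Outside the members, Slc1a3 passed by DESeq2, without a filter and with the covariate. The members' median log2 fold change ranged from 0.05 to 0.16. Same replicate numbers did not pair the libraries (correlations of 0.03, -0.13 and 0.25, and of the 3 numbers 3 alone matched its own best), so the block has no basis in the design. Of the 34 members, 22 kept their sign under all 16 alternatives, and no scaling, filter or tool turned one. When 1 library was left out, the log2 fold changes that turned sign ranged from -0.048 to 0.15 for Atf3, -0.15 to 0.51 for Chac1, -0.039 to 0.012 for Eif2ak1, -0.056 to 0.031 for Eif2ak3, -0.097 to 0.034 for Eif2ak4, -0.12 to 0.020 for Ppp1r15a, -0.0063 to 0.024 for Ppp1r15b, -0.10 to 0.040 for Sesn2, -0.064 to 0.16 for Shmt2, -0.085 to 0.17 for Slc38a2 and -0.045 to 0.40 for Slc7a1; Ddit4 ranged from -0.17 to -0.0052 and kept its sign. Leaving out KO 3 turned 8 of these (Atf3, Chac1, Eif2ak1, Eif2ak3, Eif2ak4, Ppp1r15a, Shmt2 and Slc7a1). Without KO 1 and WT 2, Ddit4 was at 0.045 and Slc38a2 at -0.057. The cause of these turns was not tested. With the median transcript length, per-length levels of 16 members moved by more than their spread. Depth limits Chac1, Pycr1, Stc2 and Cth, all under 1 CPM.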
